A study of Mus musculus with 12 samples.

Results

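Glucose production by the liver rests on a short series of genes, and 10 of them were followed here among the 54838 genes of a liver read count table: *Pcx*, *Pck1*, *Fbp1*, *G6pc*, *Slc37a4*, *Slc2a2*, *Gpt*, *Gpt2*, *Pklr* and *Pfkfb1*. They were chosen by name, as the rows of the table whose mouse gene symbol is one of these, and all 10 were found and tested in every comparison. The table covers 12 livers, 1 per C57BL/6J mouse, with 3 mice in each of 4 groups. For 7 days the drinking water was either plain or held 25 mM ZnSO4, after which mice were injected with PBS, alone or with 200 µg of the synthetic glucocorticoid dexamethasone (Dex), and livers were sampled 2 h later. The groups are called water-PBS (plain water and PBS, the control), zinc-PBS (ZnSO4 water and PBS), water-Dex (plain water and Dex) and zinc-Dex (ZnSO4 water and Dex). No group carried a genetic change, and the study's methods describe female mice with free access to food.

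In gluconeogenesis, hepatocytes make glucose from lactate, alanine and glycerol. Pyruvate carboxylase (*Pcx*) turns pyruvate into oxaloacetate, phosphoenolpyruvate carboxykinase (*Pck1*) turns oxaloacetate into phosphoenolpyruvate, and fructose-1,6-bisphosphatase (*Fbp1*) reverses the committed step of glycolysis. Glucose-6-phosphate then enters the endoplasmic reticulum through the transporter encoded by *Slc37a4*, is hydrolysed there by glucose-6-phosphatase (*G6pc*), and glucose crosses the plasma membrane through GLUT2 (*Slc2a2*). Alanine enters this route through the alanine aminotransferases *Gpt* and *Gpt2*, whereas pyruvate kinase (*Pklr*) and the bifunctional enzyme that sets fructose-2,6-bisphosphate (*Pfkfb1*) act on the opposing flux. Fasting, glucagon and glucocorticoids are known to raise transcription of *Pck1* and *G6pc* in liver, and insulin is known to lower it.

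In PBS-injected mice *G6pc* was the member called lower with zinc. Among Dex-injected mice its log2 difference with zinc of -0.77 did not pass the test (DESeq2 adjusted p 0.358). After Dex, *Pck1* and *Gpt2* were called higher on both waters. *Slc37a4* was called higher on plain water only (log2 0.82), and on zinc water (log2 0.67) it was higher by adjusted p alone. Zinc-PBS livers held 789 ± 233 normalized counts of *G6pc* (SD, n = 3) against 2599.6 ± 771 in water-PBS, and after Dex no change of this gene passed the test on either water. *Pck1* rose from 15965 ± 8769 in water-PBS to 49141 ± 4613 in water-Dex, and *Gpt2* rose from 3489.8 ± 845 to 8515 ± 199.9. *Fbp1*, *Pcx*, *Slc2a2*, *Gpt*, *Pklr* and *Pfkfb1* were called in no comparison, although *Pcx* was higher after Dex by adjusted p alone. A normalized count is a read count divided by the library's DESeq2 size factor. Called genes had, over all genes tested, a DESeq2 adjusted p under 0.05 together with an absolute log2 fold change above 0.8, and "rose" and "fell" are used only for called genes.

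The upstream sequences of the 4 members called in any comparison are printed. They come from RefSeq windows of 250 bases before a gene's start on GRCm38.p6, which were found for 9 of the 10 members, and each is cut where the GENCODE M21 gene model already begins, so that no base of either gene model is shown. For *G6pc* the cut leaves 95 bases and takes away the 155 bases nearest the RefSeq start. Motifs were searched in the whole windows. All 4 genes lie on the plus strand. Capitals mark matches to 2 of the 4 motifs searched on both strands: the cAMP response element (CRE) half-site TGACG, and the core of the metal response element (MRE), written as TGCGCNC or TGCACNC. No match overlapped that of another motif.
*G6pc*, chr11:101367466-101367560: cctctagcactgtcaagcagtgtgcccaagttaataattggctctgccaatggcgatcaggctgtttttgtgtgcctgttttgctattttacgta
*Pck1*, chr2:173152823-173153047: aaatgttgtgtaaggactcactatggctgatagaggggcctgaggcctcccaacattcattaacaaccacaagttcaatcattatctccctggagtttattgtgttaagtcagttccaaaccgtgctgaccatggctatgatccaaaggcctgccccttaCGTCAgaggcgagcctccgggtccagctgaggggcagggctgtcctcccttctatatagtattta
*Gpt2*, chr8:85492326-85492575: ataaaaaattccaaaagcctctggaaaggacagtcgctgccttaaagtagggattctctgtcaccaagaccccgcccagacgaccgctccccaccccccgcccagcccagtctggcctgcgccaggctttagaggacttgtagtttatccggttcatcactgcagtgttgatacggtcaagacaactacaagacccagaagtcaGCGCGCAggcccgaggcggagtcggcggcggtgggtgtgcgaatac
*Slc37a4*, chr9:44396696-44396851: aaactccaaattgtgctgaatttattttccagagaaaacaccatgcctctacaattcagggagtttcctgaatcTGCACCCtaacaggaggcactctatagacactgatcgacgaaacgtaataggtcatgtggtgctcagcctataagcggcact

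In *Pck1* the CRE half-site, read on the other strand as CGTCA, began 90 bases before the RefSeq start, and in *Gpt2* the MRE core began 46 bases before it. The *Slc37a4* window is that of its most upstream RefSeq start, and its printed MRE core began 176 bases before that start. A further CRE half-site and a further MRE core of this window lie in the bases not shown. Over the 16 windows of the 9 members, a CRE half-site stood in 3 windows of 2 genes and an MRE core in 5 windows of 4 genes, *Fbp1* and *Pcx* among them. Overlapping windows of *Slc37a4* share a CRE half-site and an MRE core, so these same letters were counted in each of those windows. Of all 32851 mouse windows of this length, 17.77% held the CRE half-site and 21.41% the MRE core. The glucocorticoid receptor (GR) half-site AGAACA and the forkhead box O (FOXO) site TGTTTAC, held by 16.08% and 3.166% of all windows, were in none of the members' windows. A match is a description of letters and not a bound site, and the absence of one says only that these letters are not in this window.

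The libraries held between 9091152 and 12303527 counts, and each member had counts far above the floor of 3 in every library, the lowest being 326 normalized counts of *Pfkfb1*. All 7 hepatocyte markers were detected in every group, with a summed level of 132122 to 158386 TPM, the unit used here for counts per exon base scaled to the same total in every library. Summed TPM over 5 markers each stayed at or below 559 for red blood cells, 318 for Kupffer cells, 187 for gut epithelium, 166 for bile duct epithelium, 165 for endothelium, 131 for stellate cells and 12.3 for exocrine pancreas. Exocrine pancreas markers were at 0 in all libraries of a group for 3 of 5 genes in water-PBS and 4 of 5 in the other groups. In bulk liver RNA, fewer cells of a type cannot be told apart from less RNA per cell.

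Per length, the members spanned a wide range in water-PBS livers. *Fbp1* was highest at 1477 ± 164 TPM (SD, n = 3) and *Pck1* followed at 1114 ± 602 TPM, ranks 70 and 92 among 54809 genes with a known length. *G6pc* (258 ± 73.0 TPM), *Pcx* (250.3 ± 11.3), *Slc2a2* (190.4 ± 16.4), *Gpt* (163 ± 45.3), *Pklr* (157 ± 14.8), *Gpt2* (149 ± 38.9) and *Slc37a4* (112 ± 12.3) formed a middle range. Neighbours in this order differed by less than the SD of at least 1 of them, except *Pcx* and *Slc2a2*, whose livers did not overlap. *Pfkfb1* was lowest at 24.6 ± 5.0 TPM, rank 3188. *Fbp1* and *Pck1* also overlapped, since single water-PBS livers held 1375 to 1666 TPM of *Fbp1* and 480.2 to 1677 TPM of *Pck1*.

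**Figure D1:**
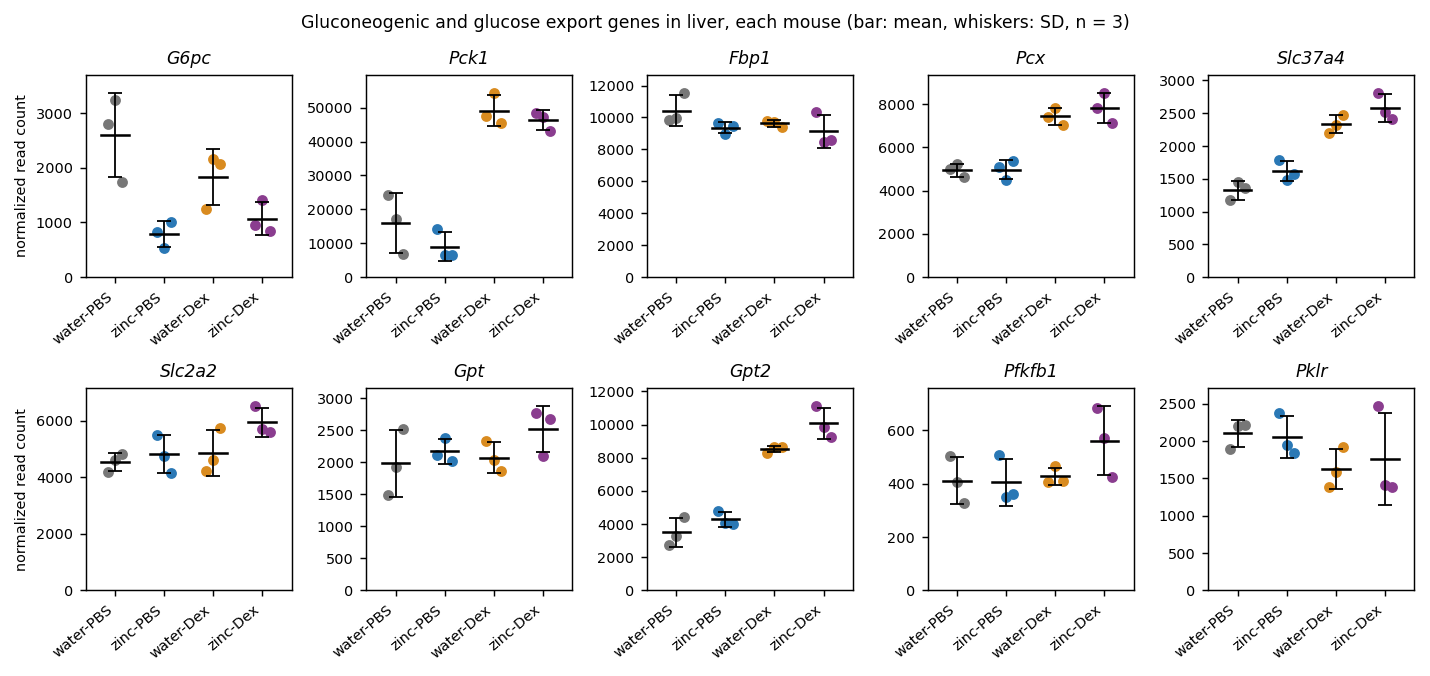
Normalized read counts of the 10 genes in each liver (points), with the group mean (bar) and SD (whiskers), n = 3 mice per group, each panel with its own linear axis from 0. *Pck1*, *Gpt2*, *Slc37a4* and *Pcx* separate the Dex groups from the PBS groups. *G6pc* is lowest in zinc-PBS at 789 counts on average, and *Fbp1* stays between 8479 and 11537 counts.

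The first question was what zinc in the drinking water alone changed. Of the 10 members 1 was called in zinc-PBS against water-PBS, *G6pc*, where 0.138% of the 12307 genes tested were called (0.341% by adjusted p alone). *G6pc* (ENSMUSG00000078650, chr11:101367561-101377903), which encodes the enzyme that both gluconeogenesis and glycogen breakdown end in, held 2802, 3249.8 and 1747 normalized counts in the water-PBS livers and 828, 538 and 999 in the zinc-PBS livers. All zinc-PBS livers lay below all water-PBS livers. The log2 fold change was -1.72 (SE 0.339, 95% interval -2.39 to -1.06, DESeq2 adjusted p 4.9e-04), a level 3.30-fold lower. Leaving out single libraries gave log2 values from -1.94 to -1.51, and edgeR gave an adjusted p of 0.0309.

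The other members of the export step did not fall with *G6pc*. *Slc37a4* (ENSMUSG00000032114, chr9:44396852-44402968) held 1171, 1449.7 and 1355 normalized counts in water-PBS and 1789.9, 1483 and 1579.8 in zinc-PBS, so that every zinc-PBS liver lay above every water-PBS liver. Its log2 difference was 0.29 (SE 0.107), which did not pass the test (DESeq2 adjusted p 0.469). *Slc2a2* (ENSMUSG00000027690, chr3:28697903-28731359) held 4195, 4618 and 4836 against 5503, 4768 and 4169.9, with overlapping groups and a log2 difference of 0.08 (95% interval -0.18 to 0.34).

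*Pck1* (ENSMUSG00000027513, chr2:173153048-173159273), the cytosolic carboxykinase, varied more between control livers than any other member. Its normalized counts were 24131, 17067 and 6697 in water-PBS and 14071, 6472 and 6449 in zinc-PBS. The zinc-PBS livers lay toward the low end of the control range but overlapped it, and the log2 difference of -0.83 (SE 0.438, 95% interval -1.69 to 0.03) did not pass the test (DESeq2 adjusted p 0.890). This value rested on single livers, being -0.40 when water-PBS replicate 1 was left out and -1.31 when zinc-PBS replicate 1 was, and it passed in no alternative (lowest adjusted p 0.114). The same water-PBS liver that was lowest for *Pck1* was also lowest for *G6pc*, and without it the *G6pc* difference was -1.94.

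The log2 differences of the remaining 6 members with zinc alone lay between -0.16 (*Fbp1*) and 0.30 (*Gpt2*), and none passed the test. *Fbp1* held 9626, 8954 and 9489 normalized counts in zinc-PBS, each below the lowest water-PBS liver at 9820 (DESeq2 adjusted p 0.981). For *Gpt2* the DESeq2 adjusted p of 0.820 became 0.00639 without water-PBS replicate 3, at a log2 value of 0.50 that is below the fold threshold. The median over the 10 members was -0.01, against -0.00096 over all genes tested.

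The second question was what Dex changed in mice on plain water. Of the 10 members 3 were called in water-Dex against water-PBS, all higher, where 9.68% of the 14221 genes tested were called, and 4 passed by adjusted p alone, where 21.6% of genes did. *Pck1* held 47444, 54362 and 45618 normalized counts in the water-Dex livers, each above the highest control liver. The log2 fold change was 1.62 (SE 0.438, 95% interval 0.76 to 2.48, DESeq2 adjusted p 0.00185), a 3.08-fold rise. The size of this rise depended on the control livers, at 1.26 without water-PBS replicate 3 and 2.05 without water-PBS replicate 1, and the call held in both cases.

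*Gpt2* (ENSMUSG00000031700, chr8:85492576-85527560) encodes the mitochondrial alanine aminotransferase, which makes pyruvate from alanine. It held 2762, 3292 and 4416 normalized counts in water-PBS and 8285, 8620.1 and 8641 in water-Dex. The water-Dex livers differed from each other by far less than the control livers did, and the groups were well apart. The log2 fold change was 1.29 (SE 0.145, DESeq2 adjusted p 3.9e-17), a 2.44-fold rise.

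*Slc37a4*, the endoplasmic reticulum carrier, held 2206, 2314 and 2477 normalized counts in water-Dex, all above the control range of 1171 to 1449.7. The log2 fold change of 0.82 (SE 0.107, DESeq2 adjusted p 9.9e-13) was just past the fold threshold. Without water-PBS replicate 1 the value was 0.73 and without water-Dex replicate 3 it was 0.77, where the DESeq2 adjusted p stayed at 1.2e-09 and 1.6e-08 but the gene was no longer called.

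*Pcx* (ENSMUSG00000024892, chr19:4510472-4621752), the mitochondrial enzyme of the first step from pyruvate, held 4992, 5224 and 4619 normalized counts in water-PBS and 7417, 7837 and 7056 in water-Dex. The groups did not overlap. Its log2 difference of 0.59 (SE 0.096, DESeq2 adjusted p 1.7e-08), 1.50-fold, passed the adjusted p but stayed under the fold threshold.

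*G6pc*, by contrast with *Pck1*, was not higher after Dex. Its water-Dex livers held 1251, 2171 and 2076 normalized counts, inside and below the control range of 1747 to 3249.8. The log2 difference was -0.50 (SE 0.339, 95% interval -1.17 to 0.16, DESeq2 adjusted p 0.328). The upper end of this interval lies below the lower end of that of *Pck1*.

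The gluconeogenic enzyme gene *Fbp1* was not called with Dex on plain water, and neither were *Pklr*, *Gpt* and *Pfkfb1*. *Fbp1* (ENSMUSG00000069805, chr13:62864753-62888282, minus strand) held 9820.0, 9944 and 11537 normalized counts in water-PBS and 9805, 9734 and 9404 in water-Dex, a log2 difference of -0.11 (95% interval -0.30 to 0.07). Its water-Dex livers lay just below all water-PBS livers. *Pklr* (ENSMUSG00000041237, chr3:89136142-89146784) held 1899, 2196 and 2213 against 1384, 1588 and 1916, groups that overlap slightly. Its log2 difference was -0.37 (SE 0.196, DESeq2 adjusted p 0.187), and in a fit of these 6 libraries alone the adjusted p was 0.0341. *Gpt* (ENSMUSG00000022546, chr15:76695716-76699686), the cytosolic aminotransferase, held 1490.2, 1932 and 2522 against 2330.1, 2029 and 1859. *Pfkfb1* (ENSMUSG00000025271, chrX:150588229-150643878) held 504, 406 and 326 against 408, 465 and 409.6. Neither *Gpt* nor *Pfkfb1* differed beyond the spread, with log2 differences of 0.07 and 0.05.

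The exons of *Pfkfb1* share 123 of 4017 bases with *Apex2* on the opposite strand, and those of *Pklr* share 711 of 3236 bases with *Hcn3*. The strand setting of the counting is not given in the sources used here, so both levels are uncertain. *Apex2* held 53.8 to 108 normalized counts and *Hcn3* 32.2 to 121.

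Dex in zinc-treated mice was read from a separate set of 6 livers, zinc-Dex against zinc-PBS, which shares no library with the comparison on plain water. Of the 10 members 2 were called, *Pck1* and *Gpt2*, both higher, where 9.68% of the 15657 genes tested were called, and 4 passed by adjusted p alone, where 20.1% did. *Pck1* held 48579, 47304 and 43124 normalized counts in zinc-Dex, a narrow range far above the zinc-PBS livers. The log2 fold change was 2.36 (SE 0.438, 95% interval 1.51 to 3.22, DESeq2 adjusted p 1.2e-06), a 5.15-fold rise. *Gpt2* held 4802, 4077 and 3989.7 normalized counts in zinc-PBS and 11102, 9822 and 9269.6 in zinc-Dex, a log2 fold change of 1.23 (SE 0.145, DESeq2 adjusted p 1.0e-15).

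*Slc37a4* and *Pcx* were higher in every zinc-Dex liver than in any zinc-PBS liver, but under the fold threshold. *Slc37a4* held 2809.9, 2526 and 2405 normalized counts in zinc-Dex, with a log2 difference of 0.67 (SE 0.106, DESeq2 adjusted p 5.8e-09). *Pcx* held 5075, 4478 and 5376 in zinc-PBS and 7830.2, 8519 and 7127 in zinc-Dex, with a log2 difference of 0.65 (SE 0.095, DESeq2 adjusted p 2.3e-10). For both genes the estimates on plain and on zinc water lay within each other's 95% intervals.

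*G6pc* held 953, 1419.6 and 841 normalized counts in zinc-Dex, overlapping the zinc-PBS livers. The log2 difference was 0.44 (SE 0.340, 95% interval -0.22 to 1.11, DESeq2 adjusted p 0.428), so that a Dex effect on this gene was detected on neither water. *Slc2a2* held 6515, 5693 and 5612 in zinc-Dex, above all zinc-PBS livers, at a log2 difference of 0.30 that did not pass the test (DESeq2 adjusted p 0.0887). *Pfkfb1* held 507, 349 and 362 in zinc-PBS and 684, 573 and 426 in zinc-Dex, with overlapping groups (log2 0.47, DESeq2 adjusted p 0.0789). For both genes the adjusted p went under the threshold when zinc-PBS replicate 1, their highest zinc-PBS liver, was left out, at log2 0.41 for *Slc2a2* and 0.66 for *Pfkfb1*. For *Pfkfb1* this was also so without zinc-Dex replicate 3 and with the replicate number as a block (DESeq2 adjusted p 0.0108 and 0.0206).

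*Pklr* in zinc-Dex showed 1 liver apart from its group, at 2467 normalized counts beside 1412 and 1391. The difference to zinc-PBS, where livers held 2377, 1942 and 1840.5, was -0.23 on the log2 scale (DESeq2 adjusted p 0.501). Without zinc-Dex replicate 1 it was -0.55 (DESeq2 adjusted p 0.00221), again under the fold threshold. The same liver was the highest of its group for *Pck1*, *Fbp1*, *Slc37a4*, *Slc2a2*, *Gpt*, *Gpt2* and *Pfkfb1*. *Gpt* differed by 0.21 and *Fbp1* by -0.04 on the log2 scale, and neither passed the test.

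**Figure D2:**
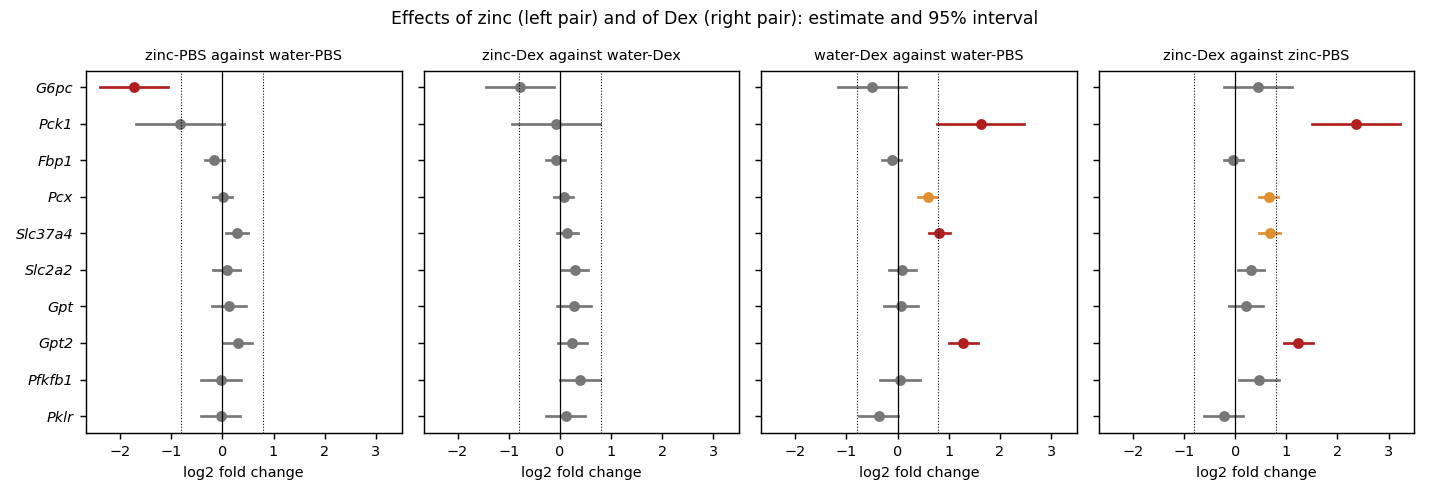
Log2 fold changes (points) with 95% intervals (lines) of the 10 genes for zinc without and with Dex (left pair of panels) and for Dex on plain and on zinc water (right pair), from 1 DESeq2 fit of 12 livers. Red marks called genes, orange an adjusted p under 0.05 below the fold threshold, grey the rest, and dotted lines the threshold of 0.8. *G6pc* at -1.72 is the red point of the zinc panels, and *Pck1* and *Gpt2* are red in both Dex panels.

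A direct comparison of zinc-Dex with water-Dex asked what zinc changed among Dex-injected mice. None of the 10 members was called, where 0.469% of the 12786 genes tested were called (1.35% by adjusted p alone). The edgeR count was also 0. At an unadjusted p under 0.05 there were 2 members higher, *Slc2a2* (log2 0.29) and *Pfkfb1* (log2 0.39), and 1 lower, *G6pc* (log2 -0.77, SE 0.339, 95% interval -1.44 to -0.11, DESeq2 adjusted p 0.358). At that cut 768 of all 12786 genes tested were higher and 531 lower. The zinc-Dex livers held 841 to 1419.6 normalized counts of *G6pc* and the water-Dex livers 1251 to 2171, groups that overlap. *Pck1* had almost the same level in both Dex groups, 49141 ± 4613 on plain water and 46335 ± 2854 on zinc water, with a log2 difference of -0.08. Its interval of -0.94 to 0.77 still allows a fall past the fold threshold and a rise of nearly that size.

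The interaction of zinc and Dex, which asks whether the Dex effect differed between the waters, was called for none of the members, where 0.0191% of the 26185 genes tested were called (0.0229% by adjusted p alone). The edgeR count was 0 as well, and 1 member had an unadjusted p under 0.05, *G6pc* (log2 0.95, SE 0.480, 95% interval 0.01 to 1.89, DESeq2 adjusted p 0.999). Over all 26185 genes tested, 279 with a positive and 243 with a negative interaction passed that cut. For *Pck1* the interaction was 0.74 (95% interval -0.47 to 1.96), but 0.32 when water-PBS replicate 1 was left out and 1.22 when zinc-PBS replicate 1 was. For *Gpt2* it was -0.06 (95% interval -0.46 to 0.35). The larger Dex rise of *Pck1* on zinc water was therefore not shown to differ from that on plain water.

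Compared with control livers, zinc-Dex livers combined the lower *G6pc* with the higher *Pck1*. Of the 10 members 3 were called higher and 1 lower in zinc-Dex against water-PBS, where 7.24% of the 21401 genes tested were called, and 6 passed by adjusted p alone, where 14.8% did. *G6pc* fell by 1.28 on the log2 scale (SE 0.339, DESeq2 adjusted p 0.00196). *Pck1* rose by 1.54 (SE 0.438, DESeq2 adjusted p 0.00485), *Gpt2* by 1.53 (SE 0.145, DESeq2 adjusted p 6.4e-24) and *Slc37a4* by 0.96 (SE 0.107, DESeq2 adjusted p 2.0e-17). *Pcx* at 0.66 and *Slc2a2* at 0.38 passed the adjusted p alone. For *Slc2a2* this was lost without water-PBS replicate 1, water-PBS replicate 2 or zinc-Dex replicate 1 (DESeq2 adjusted p 0.0964, 0.0509 and 0.112). *Fbp1*, *Gpt*, *Pklr* and *Pfkfb1* each passed the adjusted p, but not the fold threshold, in at least 1 fit without a library. The comparison shares the water-PBS livers with that of zinc alone and that of Dex on plain water, so its values are not a separate observation of either.

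Pairs of members were also set side by side within each liver, on the per-length scale, as a description chosen after the values were seen. *Slc37a4* and *G6pc* encode the carrier and the enzyme that work together in the endoplasmic reticulum. The TPM ratio of *Slc37a4* to *G6pc* was 0.353, 0.377 and 0.655 in water-PBS and 1.83, 2.33 and 1.34 in zinc-PBS. After Dex it was 1.49, 0.901 and 1.01 on plain water and 2.49, 1.50 and 2.42 on zinc water. Control livers thus held more RNA of the enzyme than of the carrier, and zinc-treated livers held more of the carrier, while the water-Dex livers lay on both sides of 1.

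*Pck1* and *G6pc*, which are often used together as readouts of gluconeogenic transcription, also differed in their response. The TPM ratio of *Pck1* to *G6pc* was 6.06, 3.70 and 2.70 in water-PBS and 12.0, 8.46 and 4.54 in zinc-PBS. After Dex it was 26.7, 17.6 and 15.5 on plain water and 35.9, 23.5 and 36.1 on zinc water. Every Dex-injected liver had a higher ratio than every PBS-injected liver. *Gpt2* made up 49.1%, 47.0% and 47.7% of the summed TPM of both alanine aminotransferases in water-PBS and 54.3%, 47.1% and 50.8% in zinc-PBS. After Dex its share was 65.0%, 68.9% and 70.8% on plain water and 67.7%, 70.9% and 64.3% on zinc water, so the mitochondrial form was the more abundant RNA in each Dex-injected liver.

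**Figure D3:**
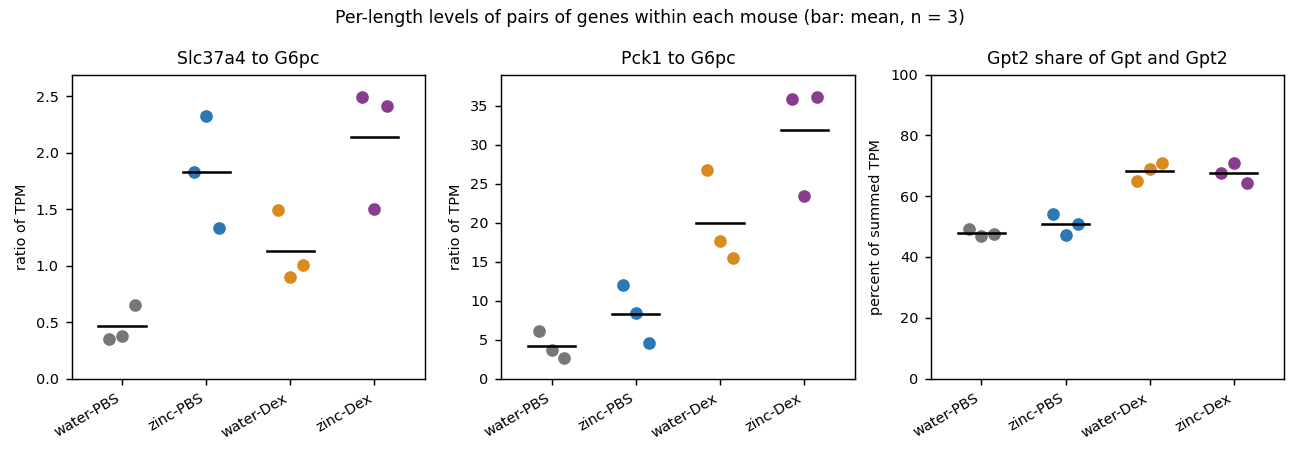
Per-length levels of pairs of genes within each liver (points) with the group mean (bar), n = 3 mice per group: the ratio of *Slc37a4* to *G6pc*, the ratio of *Pck1* to *G6pc*, and *Gpt2* as a percent of the summed TPM of *Gpt* and *Gpt2*. The carrier to enzyme ratio lies between 0.353 and 0.655 in water-PBS and between 1.34 and 2.49 in both zinc groups, and the *Gpt2* share lies above 64% in all Dex-injected livers.

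The rest of the pathway was read from a list of 34 further enzymes and carriers of glucose metabolism, of which 33 or 34 were tested, and from 18 regulators. With zinc alone 0 genes of either list were called by DESeq2 or edgeR, where DESeq2 called 0.138% of all genes tested. At an unadjusted p under 0.05 there were 2 higher and 2 lower in the first list, and 0 higher and 4 lower among the regulators. Over all 12307 genes tested, 405 were higher and 301 lower at this cut. With Dex on plain water 5 of 33 enzymes and carriers were called, all higher, with *Pfkfb3*, *Sds*, *Got1* and *Pfkfb2* among them. Of all genes tested in this comparison, 9.68% were called. Among the 18 regulators 3 were higher (*Cebpb*, *Foxo1* and *Klf15*) and 3 lower (*Srebf1*, *Irs1* and *Cebpa*). On zinc water 6 of 33 enzymes and carriers were higher, these 5 and *Pdk4*, and none lower. There 5 regulators were higher, with *Ppargc1a* and *Sik1* added, and the same 3 were lower, where 9.68% of all genes tested were called. In zinc-Dex against water-PBS 7.24% of all genes tested were called. There 4 of 34 enzymes and carriers were higher, *Sds*, *Got1* and *Pfkfb3* among them, and 1 was lower (*Slc16a1*). In that comparison 4 regulators were higher (*Cebpb*, *Foxo1*, *Klf15* and *Ppargc1a*) and 4 lower (*Srebf1*, *Nr0b2*, *Irs1* and *Cebpa*). *Pfkfb2*, *Irs1*, *Cebpa*, *Ppargc1a*, *Sik1* and *Slc16a1* are named here because their values were seen. The median log2 difference of the 33 enzymes and carriers was 0.06 with Dex on plain water and 0.14 on zinc water, against -0.01 over all genes tested in both.

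Of the enzymes that bring amino acid carbon into the pathway, *Sds* and *Got1* rose with Dex. *Sds*, serine dehydratase, held 539.8, 664 and 809 normalized counts in water-PBS and 3159.5, 2986 and 3297 in water-Dex, and rose by 2.23 on the log2 scale (SE 0.138, DESeq2 adjusted p 1.6e-56), with a rise of 2.21 on zinc water. *Got1*, cytosolic aspartate aminotransferase, held 2673, 3169 and 2433 in zinc-PBS and 9141, 7010.2 and 9043 in zinc-Dex, and rose by 1.61 (SE 0.139, DESeq2 adjusted p 1.1e-28). In both cases all Dex-injected livers lay above all PBS-injected livers of the same water.

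In the same livers a glycolytic gene of the list rose. *Pfkfb3*, an inducible kinase that makes fructose-2,6-bisphosphate, held 124, 172 and 124 normalized counts in water-PBS and 677, 715 and 757 in water-Dex, and rose by 2.35 (SE 0.160, DESeq2 adjusted p 2.8e-46). It was lower in zinc-Dex, at 405, 518 and 472, than in water-Dex, by 0.62 on the log2 scale (DESeq2 adjusted p 0.00577), which is under the fold threshold. In that comparison *Got1* was higher by 0.48 (DESeq2 adjusted p 0.0452), also under the threshold, and these were the 2 genes of both lists with an adjusted p under 0.05. At an unadjusted p under 0.05, 8 of 33 enzymes and carriers were higher and 4 lower, and 2 of 18 regulators were higher and 2 lower. Over all 12786 genes tested, 768 were higher and 531 lower at this cut.

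*Pdk4*, a kinase that inhibits pyruvate dehydrogenase, varied strongly between livers. It held 149.8, 76.1 and 127 normalized counts in zinc-PBS and 818, 1199 and 483 in zinc-Dex, and rose by 2.83 (SE 0.829, DESeq2 adjusted p 0.0052). Without zinc-Dex replicate 2 the log2 value was 2.47 and the call was lost (DESeq2 adjusted p 0.0547). On plain water the control liver that was highest for *Pck1* also held 1006 counts of *Pdk4* beside 174 and 132 in the other two.

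Among regulators, *Cebpb*, a transcription factor gene known as an early glucocorticoid target, held 525, 608 and 381 normalized counts in water-PBS and 2172, 2348 and 2115 in water-Dex and rose by 2.13 (SE 0.205, DESeq2 adjusted p 2.8e-23). *Klf15*, a factor known to act on amino acid breakdown genes, rose by 1.43 on zinc water (SE 0.085, DESeq2 adjusted p 3.3e-61), from 1036 to 1156 counts in zinc-PBS to 2737 to 3203 in zinc-Dex. *Foxo1*, a factor known to act on the *G6pc* promoter under low insulin, rose by 1.30 on plain water (SE 0.093, DESeq2 adjusted p 3.9e-42), with 417 to 441 counts in water-PBS and 1011 to 1079 in water-Dex. *G6pc* itself did not rise in these livers.

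*Srebf1*, a lipogenic factor gene induced by insulin, fell by 1.83 on plain water (SE 0.165, DESeq2 adjusted p 9.8e-27), with 1595 to 2584 counts in water-PBS and 527 to 551 in water-Dex. *Nr0b2*, which encodes the corepressor SHP, was lower in zinc-Dex than in water-PBS by 1.66 on the log2 scale (SE 0.406, DESeq2 adjusted p 6.1e-04), at 73.9, 187 and 127 against 584, 360.4 and 280.0 counts. The zinc-PBS livers held 161, 146 and 135 counts of this gene, below all water-PBS livers. With zinc alone the log2 difference of *Nr0b2*, -1.47 (SE 0.405), did not pass the test (DESeq2 adjusted p 0.0726). With Dex its log2 differences of -0.78 on plain water and -0.19 on zinc water did not pass either. The exons of *Sds*, *Cebpb*, *Foxo1*, *Srebf1*, *Irs1*, *Pfkfb2* and *Cebpa* overlap those of opposite-strand genes, so their levels are uncertain.

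**Figure D4:**
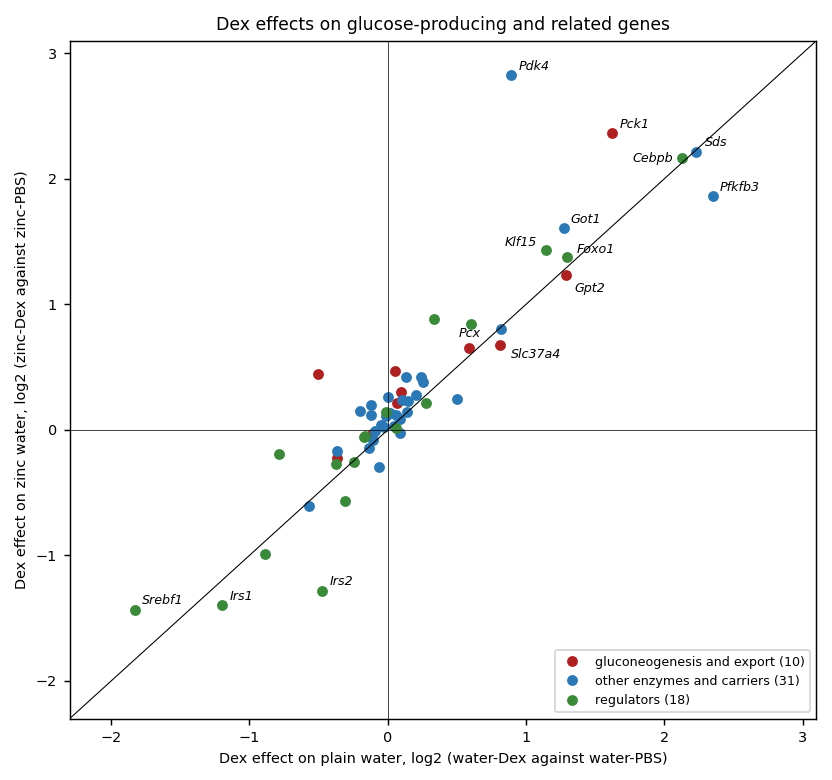
Log2 Dex effect on plain water (horizontal) against that on zinc water (vertical) for the 10 genes (red), 31 other enzymes and carriers (blue) and 18 regulators (green) averaging 50 normalized counts or more, with the line of equal effects. The axes rest on separate livers, *Pck1* lies at 1.62 and 2.36, *Gpt2* at 1.29 and 1.23, and *G6pc* at -0.50 and 0.44.

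Genes listed as markers of other cell types also moved with Dex, on plain and on zinc water. DESeq2 called 9.68% of all genes tested in each of these comparisons. Of 5 endothelial markers 1 was called higher, *Lyve1* (log2 2.53 and 2.81), and 1 lower, *Kdr* (log2 -1.14 and -1.26), and their summed level was 128 to 138 TPM in the PBS groups and 148 to 165 TPM in the Dex groups. The stellate marker *Pdgfrb* was called lower (log2 -1.10 and -0.98), with a sum over its 5 markers of 117 to 128 TPM without and 106 to 131 TPM with Dex. Of the genes listed for gut, *Lgr5* (log2 -1.71 and -1.69) and, on zinc water, *Vil1* (log2 -2.04) were called lower. In water-PBS *Lgr5* averaged 80.1 normalized counts, *Fabp2* 664, *Vil1* 7.63, *Muc2* 2.37 and *Cdx2* 0. With levels so unlike each other, a change of *Lgr5* is no measure of gut cells. *Vil1* was near the floor, with raw counts of 6 to 11 in water-PBS, 16 to 28 in zinc-PBS and 3 to 7 in zinc-Dex. The red cell marker *Hba-a1* was called higher on zinc water (log2 0.95). DESeq2 called none of the bile duct, Kupffer cell and pancreas markers tested, whereas edgeR called 1 of 5 bile duct markers with Dex on zinc water. No marker tested with zinc alone was called by either tool. In that comparison DESeq2 tested only 4 of 5 bile duct, 2 of 5 gut and 1 of 5 pancreas markers. The summed level of the 7 hepatocyte markers was 132122 to 151101 TPM in the PBS groups and 150587 to 158386 TPM in the Dex groups. The part of these markers in the changes of *Pck1*, *Gpt2* and *Slc37a4* was not tested.

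Genes with the pattern most like *G6pc* and *Pck1* over the 12 libraries were found by Pearson's r of log2(normalized count + 1), among 9573 genes that averaged 50 normalized counts or more. For *G6pc* these were *Tardbp* (r = 0.891), *Zw10* (0.887), *Trim39* (0.865), *Nsun4* (0.856) and *Tubb2a* (0.851). For *Pck1* they were *Col4a1* (r = 0.974), *Fcgr4* (0.972), *B3galt1* (0.969), *Tbc1d8* (0.969) and *Fkbp14* (0.965). The 12 points share their treatment groups, and for *Pck1* they fall into the PBS-injected and the Dex-injected livers, so these values describe likeness of pattern over the groups and carry no p.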

How the data were processed

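RNA from 12 mouse livers had been sequenced as stranded, single-end TruSeq libraries. The authors mapped the reads to mm10 with HISAT 2.0.4 and counted them per Ensembl gene with featureCounts, without multimapping reads, and they deposited raw counts, 1 column per mouse. The annotation release and strand setting are not given in the sources used here.

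Columns were assigned to groups from the labels. Following the study's methods, DESeq2 1.42.0 in R 4.3.3 was run on the whole table, in 1 fit of 12 libraries with Wald tests, unshrunken log2 fold changes and Benjamini-Hochberg adjustment over all genes. edgeR 4.0.16 (quasi-likelihood test, TMM) was an alternative. TPM used exon lengths of GENCODE M21, which also gave coordinates (GRCm38). Total counts were 9091152 to 12303527 per library, and replicates differed by 6.20 to 20.7 times counting noise, so none was a copy.

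The members, lists and tests were chosen with earlier results of these data known. Named were all members, called genes of the pathway and regulator lists averaging 50 normalized counts or more (at most the 6 largest changes per comparison), and the 5 genes most like *G6pc* and *Pck1*. The scripts were tested on simulated data. Further alternatives were TMM factors, a filter (10 counts in 3 libraries), the replicate number as a block, leaving out each library, only the libraries compared and no fold threshold. For other named genes these were added after seeing the data. Another gene met this naming rule and is not reported here.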

Additional observations from a re-analysis of the deposited data

How the results depend on the processing

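Over 710 values of single members under the alternatives, 708 kept their call or lack of one, 0 called values reversed, and 2 lost the call, both for *Slc37a4* with Dex on plain water (0.73 without water-PBS replicate 1 and 0.77 without water-Dex replicate 3). Some values under the fold threshold crossed the adjusted p threshold in single fits, and some uncalled values crossed the fold threshold, such as *G6pc* between the Dex groups at -1.03 without zinc-Dex replicate 2. The count of members called with Dex on zinc water was 4 in place of 2 with no fold threshold, since *Pcx* and *Slc37a4* then count. Leaving out each library gave 1 called member with zinc alone in every case, 2 to 3 with Dex on plain water, 2 with Dex on zinc water, 0 between the Dex groups, 4 in zinc-Dex against water-PBS and 0 for the interaction. No pairing of mice by replicate number was seen. Deviations of same-numbered livers from their group means correlated by -0.204 to 0.191, and only 1 of 18 pairs was above 0.1. With 3 livers per group such correlations cannot exclude a pairing. With the replicate block the counts were 1, 3, 2, 0, 4 and 0 in the same order. TMM scaling moved the median log2 value of genes averaging 50 normalized counts or more by less than 0.1 in every comparison. Of 187 values of other named genes, 186 kept their call. With 3 mice per group, intervals such as -1.17 to 0.16 for *G6pc* with Dex on plain water limit what a missing call can say.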
